A study of Danio rerio with 15 samples.

Results

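The genes described here set the unmutated Tu strain apart from every other group of zebrafish embryos in the series. They were chosen by their measured values. Counts were turned into CPM (each count divided by its sample's total, scaled as usual), and the mean of log2(CPM + 0.5) was taken in each of the 5 groups. A gene was kept where the widest step between neighbouring group means, of at least 0.7, left Tu alone at the top or the bottom. In addition no Tu sample could overlap with any sample from outside Tu, and at least 1 group had to average 2 CPM or more. Of 32520 genes in the table, 472 met these conditions, 236 higher and 236 lower in Tu, which is 3.28% of the 14383 genes that reached 2 CPM in a group. The 200 with the widest steps are the genes described here, 107 higher and 93 lower in Tu. The same conditions gave 342 genes that set TL apart, 414 for axin2-/-, 174 for nkd1-/- and 201 for the double mutant, counted before any limit of 200.

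RNA was sequenced from pools of 10 embryos at 50% epiboly, when the blastoderm has spread over the upper part of the yolk and gastrulation begins. Each of the 5 groups had 3 samples: Tu and TL, which are unmutated laboratory strains; axin2-/-, made with Cas9 and a guide RNA in TL; nkd1-/-, made likewise in Tu; and axin2-/-;nkd1-/-, the double mutant from a cross of both lines. Within a group the replicates shared parents and differed in the day of collection, so every spread and p-value given here measures collections of 1 family and not the spread among families of a strain. Tu differs from nkd1-/- in both the mutation and the family, and the double mutant has mixed parentage, so mutation, strain and family cannot be told apart in the comparisons.

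Tu (Tuebingen) and TL (Tupfel long fin) are kept as separate breeding stocks and are not inbred to uniformity, so fish of either strain carry many sequence variants. At this stage the embryo holds RNA loaded by the mother together with RNA from its own genome. Axin2 and Nkd1 are both feedback inhibitors of Wnt signalling that are themselves switched on by the pathway.

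Totals ran from 44098543 to 68135442 counts per sample, and those of Tu from 47428934 to 52740700. Neither targeted transcript was lower in the mutants. The AXIN2 gene averaged 62.3 ± 4.34 CPM in Tu (SD, n = 3), 69.3 ± 5.80 in TL, 95.03 ± 8.39 in axin2-/-, 85.4 ± 6.31 in nkd1-/- and 104 ± 4.96 in the double mutant. The NKD1 gene averaged 12.3 ± 0.852 CPM in Tu, 15.3 ± 1.198 in TL, 20.5 ± 6.03 in axin2-/-, 21.4 ± 2.77 in nkd1-/- and 23.0 ± 2.55 in the double mutant. Gene totals do not show whether the transcript carries the deletion, so these values do not check the genotype labels.

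The step between Tu and its nearest group ran from 4.94 down to 1.199 on the log2(CPM + 0.5) scale, with a median of 1.56. Among the 107 higher genes the median level was 9.48 CPM in Tu and 1.16 CPM for the mean of the other 4 groups. In 31 of them all 4 other group means were under 1 CPM. Among the 93 lower genes the median level was 1.09 CPM in Tu and 8.32 CPM elsewhere, and 45 averaged under 1 CPM in Tu. All these levels are what the choice of genes required, and they are given as a description with no test. In pools of whole embryos, fewer cells that use a gene and less RNA per cell cannot be told apart.

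**Figure D1:**
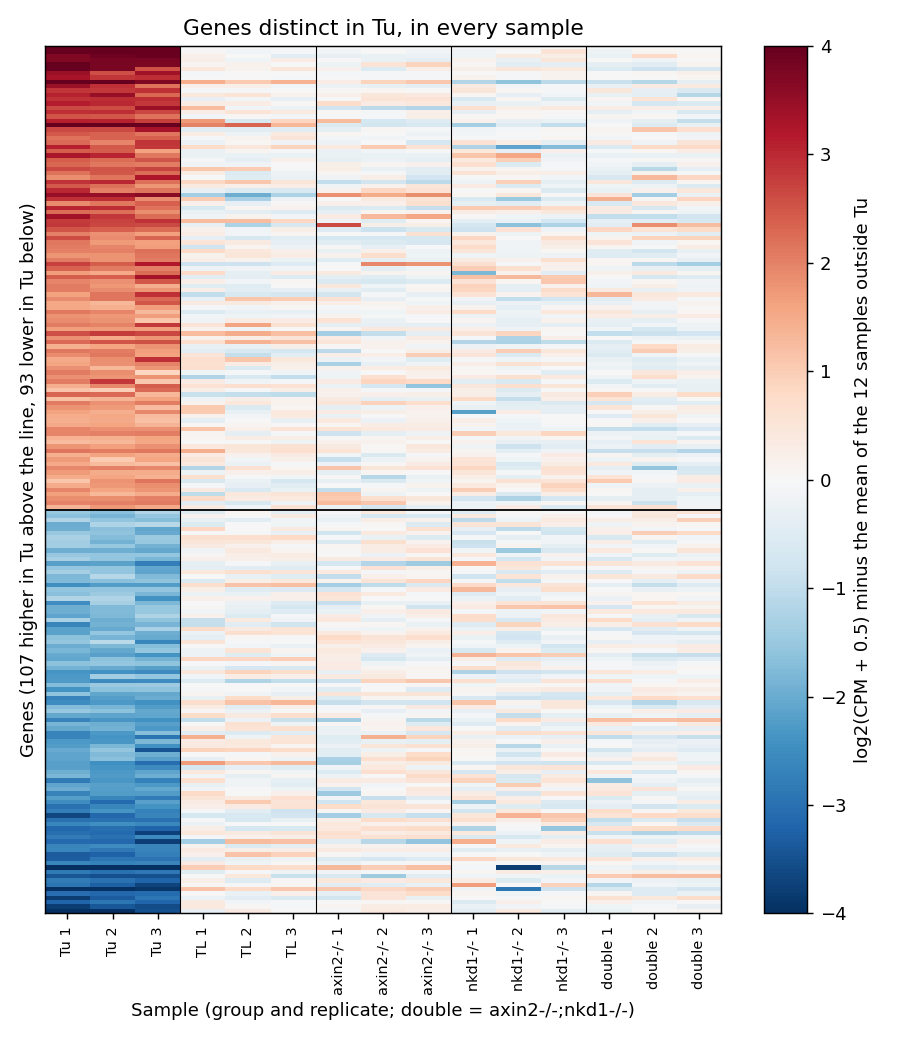
Each row is 1 of the 200 genes and each column 1 of the 15 samples; colour gives log2(CPM + 0.5) minus the mean of the 12 samples outside Tu, with the colour scale ending at 4 in either direction. The 107 genes higher in Tu stand above the line and the 93 lower genes below it, and the other 12 samples are pale in most rows, with single dark cells in a few rows of nkd1-/- replicate 2.

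The largest step of all belonged to si:dkey-174k12.3, a gene known only by a clone name. It had 638, 746 and 902 counts in the 3 Tu samples. Outside Tu it had 1 count in nkd1-/- replicate 2 and 0 counts in the other 11 samples. It was thus read in abundance in Tu and close to absent elsewhere, the nkd1-/- line derived from Tu included.

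DGKB, a diacylglycerol kinase that turns the lipid messenger diacylglycerol into phosphatidic acid, came next. It was at 26.1, 17.7 and 23.0 CPM in Tu, against a lowest value of 0.101, a median of 0.172 and a highest of 0.499 in the 12 other samples. The Tu mean was 82.6-fold that of nkd1-/-, the nearest group. A related kinase, DGKH, was also among the higher genes, at 5.02, 4.46 and 2.60 CPM in Tu and between 0.372 and 1.68 CPM outside it.

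PAMR1 (ENSDARG00000103184), a secreted protein with a peptidase domain, was at 17.0, 14.6 and 14.2 CPM in Tu and between 0.287 and 1.51 CPM elsewhere. The tmem176l.2 gene, which encodes a small membrane protein, was at 5.29, 2.65 and 4.84 CPM in Tu and never above 0.108 CPM in another sample. The 3 axin2-/- samples had 0 counts of it. The groups were widely separated for both genes, 15.2-fold and 73.6-fold between Tu and the nearest group mean.

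Further genes of this set are part of the cell's scaffolding and sorting machinery. The ap5s1 gene, a subunit of the adaptor complex AP-5 that works at late endosomes, was at 16.6, 16.5 and 17.3 CPM in Tu. In the other samples it lay between 1.08 and 2.80 CPM, a 7.71-fold difference from the nearest group, and its 3 Tu values were almost the same. The ank2b gene, an ankyrin that anchors membrane proteins to the spectrin skeleton, was at 9.87, 13.1 and 5.50 CPM in Tu and at most 1.27 CPM elsewhere, with 1 double mutant sample at 0.0541 CPM.

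A PER1 gene (ENSDARG00000012499), a period protein that represses its own transcription in the circadian clock, was at 64.5, 71.8 and 48.6 CPM in Tu. The other groups were ordered as well: 8.90 ± 1.39 CPM in TL (SD, n = 3), 6.02 ± 1.70 in axin2-/-, 1.72 ± 0.616 in the double mutant and 1.08 ± 0.300 in nkd1-/-. Tu therefore lay 6.93-fold above TL and furthest from nkd1-/-, the mutant line made in Tu. Samples of TL and axin2-/- overlapped, and so did those of nkd1-/- and the double mutant. Another gene had the same order of group means. The cry5 gene, a cryptochrome/photolyase protein that in zebrafish repairs ultraviolet damage with the energy of light, was at 106, 96.1 and 111 CPM in Tu. It averaged 43.9 ± 2.57 CPM in TL, 37.7 ± 5.47 in axin2-/-, 24.7 ± 1.77 in the double mutant and 22.5 ± 5.37 in nkd1-/-.

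The next named genes by step were LOXL3 (ENSDARG00000076306), a lysyl oxidase that cross-links collagen and elastin; CAPN11 and capn12, 2 calcium-dependent calpain proteases; and cdh29, a cadherin. LOXL3 was at 9.42, 9.78 and 9.76 CPM in Tu and at most 1.48 CPM elsewhere. CAPN11 was at 10.6, 9.71 and 8.36 CPM in Tu, against 0.272 to 1.59 CPM. The capn12 gene was at 12.4, 12.04 and 21.4 CPM, against 0.421 to 4.31 CPM, and 1 TL sample held that highest value while the other TL samples were at 1.43 and 1.25 CPM. The cdh29 gene was at 9.59, 9.80 and 7.92 CPM, against 0.379 to 1.44 CPM.

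Of the genes lower in Tu, si:ch1073-340i21.2, again known only by a clone name, had the largest step. It was at 0.548, 0.474 and 1.04 CPM in Tu and between 12.5 and 22.8 CPM in the other samples, which makes the Tu mean 23.4-fold lower than that of the nearest group. EMILIN2, a glycoprotein of elastic extracellular matrix, was at 2.19, 3.03 and 2.66 CPM in Tu. Elsewhere it ran from 29.6 through a median of 34.8 to 48.4 CPM, so that the other 4 groups were close together and Tu was 12.3-fold below the nearest.

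The urahb gene, whose product belongs to the urate-degrading hydroxyisourate hydrolases, was at 3.90, 5.61 and 7.86 CPM in Tu. It averaged 45.7 ± 5.41 CPM in TL, 57.7 ± 26.4 in axin2-/-, 60.9 ± 2.22 in nkd1-/- and 92.2 ± 10.1 in the double mutant. RAB6A, a small GTPase of transport between the Golgi and the endoplasmic reticulum, was at 2.26, 1.92 and 1.56 CPM in Tu against 12.7 to 25.6 CPM. Both genes were still read in every Tu sample.

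Among the lower genes 3 are named for sperm or the flagellum, or have a known part in it. The spa17 gene, which encodes a sperm autoantigen, was at 0.169, 0.133 and 0.160 CPM in Tu and between 3.40 and 8.70 CPM elsewhere, 28.5-fold from the nearest group. The odf3l2a gene, named for the outer dense fibres of sperm tails, had 1, 0 and 4 counts in the Tu samples. It was at 17.1 ± 1.71 CPM in TL, 21.8 ± 2.48 in axin2-/- and 7.40 ± 0.796 in the double mutant, while nkd1-/- was spread out at 9.20, 0.210 and 4.05 CPM. The ccdc34 gene, which in humans is needed for building the sperm flagellum, was at 1.16, 0.796 and 0.460 CPM in Tu. Its nkd1-/- samples were at 39.2, 12 and 23 CPM, and the remaining samples lay between 5.16 and 12.4 CPM.

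SPPL2B, an intramembrane protease of the presenilin family, had nkd1-/- samples spread in the same order. It was at 0.316, 0.152 and 0.460 CPM in Tu and at 12.4, 1.38 and 7.49 CPM in nkd1-/-. In TL it was at 30.8, 23.6 and 29.6 CPM, in axin2-/- at 29.5, 25.2 and 28.0 CPM, and in the double mutant at 8.60, 9.61 and 7.85 CPM. Replicate 2 was the lowest nkd1-/- sample for odf3l2a, ccdc34 and SPPL2B. The step of SPPL2B ran from 3.52 to 2.28 below the nearest group, and that of odf3l2a from 3.64 to 1.76, as each sample was left out in turn.

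The last named genes of this end were MCHR1 (ENSDARG00000022525), a receptor of melanin-concentrating hormone; fbxw11a, an F-box protein that marks targets such as beta-catenin for degradation in other vertebrates; and CCDC59. MCHR1 had 2, 0 and 0 counts in Tu and between 1.64 and 13.2 CPM elsewhere, with all 3 double mutant samples at 11.3 CPM or more and every other sample at 7.22 CPM or less. The fbxw11a gene was at 4.47, 4.0 and 4.32 CPM in Tu against 24.5 to 43.4 CPM. CCDC59 was at 1.22, 1.12 and 1.18 CPM against 8.32 to 12.7 CPM. In Tu the 3 samples of fbxw11a and of CCDC59 were nearly equal.

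**Figure D2:**
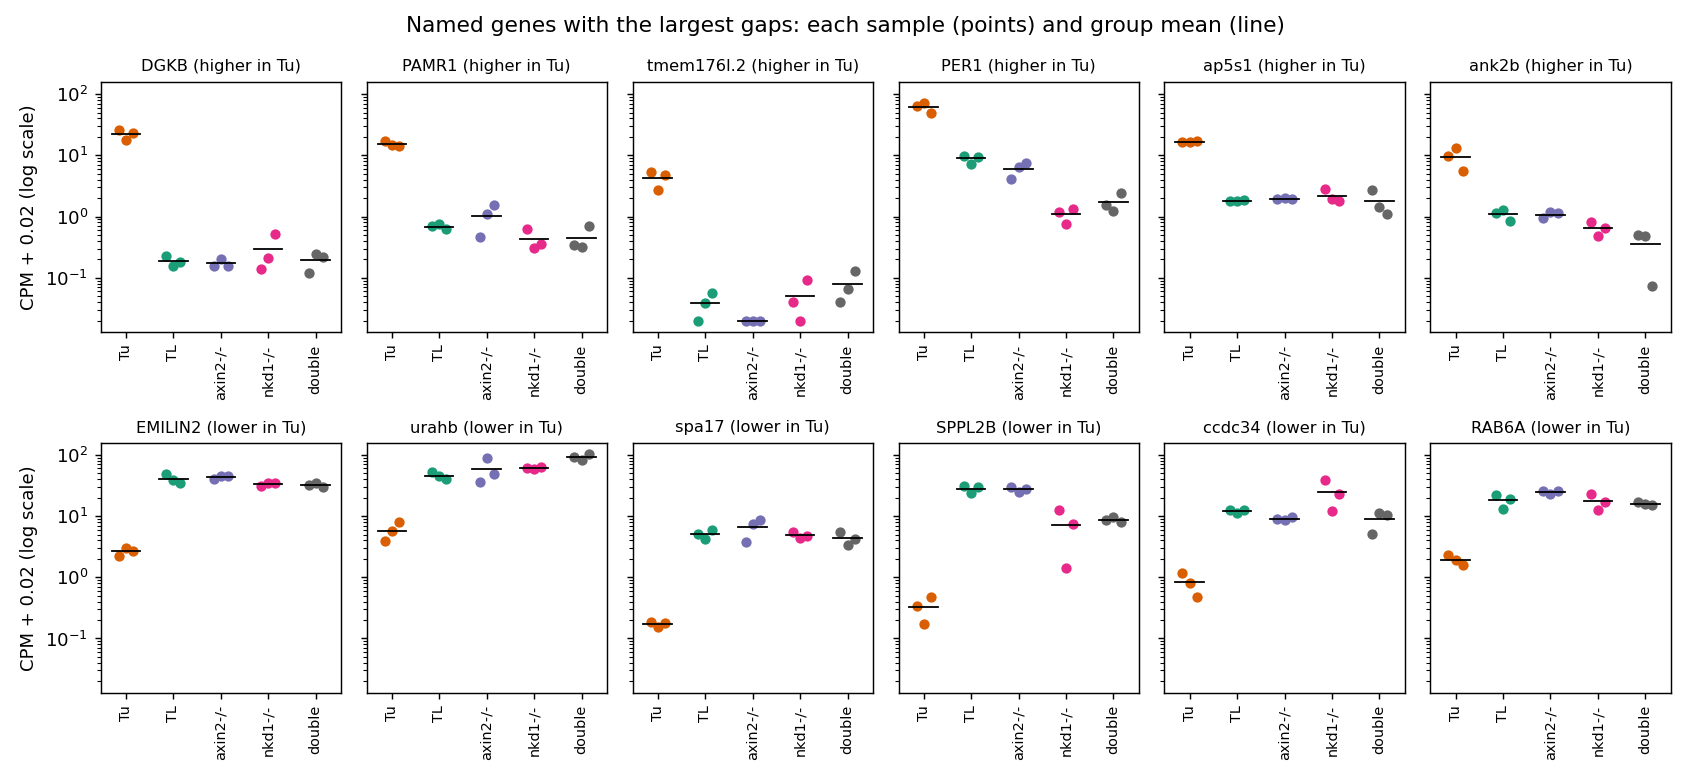
CPM + 0.02 on a log axis for the 6 named genes with the largest steps in each direction; points are the samples, 3 in each of the 5 groups, and lines the group means. The top row shows genes higher in Tu and the bottom row genes lower in Tu, and for SPPL2B the lowest nkd1-/- sample (1.38 CPM) is the closest to the Tu samples.

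The genes were also arranged by what their products do. The 15 role groups, which hold 59 of the 200 genes, were put together after the values had been seen, so their counts describe the genes and carry no test. They split into 32 higher and 27 lower in Tu, against 107 and 93 of all 200.

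Of 7 genes grouped here for cell adhesion and contact, 6 were higher in Tu. Beside cdh29 they were cdh30, PCDH19, KIRREL3 (ENSDARG00000075806), NCAM2 (ENSDARG00000017466) and cntn2, all membrane proteins through which cells, in many cases neurons, hold to each other. KIRREL3 was at 12.7, 12.3 and 9.96 CPM in Tu and between 0.289 and 4.46 CPM elsewhere. NCAM2 was at 15.8, 16.0 and 7.40 CPM in Tu against 0.268 to 5.26 CPM. The cntn2 gene was at 13.2, 15.2 and 13.9 CPM in Tu, at 5.14 ± 0.637 in TL and at 0.783 ± 0.465 in axin2-/-. The lower gene was PKP1, a plakophilin of desmosomes, at 1.90, 3.58 and 3.62 CPM in Tu against 7.19 to 27.2 CPM. Summed over the 27 genes of the table whose names begin with cdh, cadherins were at 733 ± 35.4 CPM in Tu, 737 ± 22.6 in TL, 753 ± 57.7 in axin2-/-, 752 ± 87.7 in nkd1-/- and 874 ± 38.6 in the double mutant. The cadherin total was therefore not higher in Tu.

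Among the 6 receptors was BMPR1A (ENSDARG00000019728), a type I receptor of bone morphogenetic proteins. BMP signalling patterns the ventral side of the gastrula. This gene was at 54.1, 64.6 and 66.0 CPM in Tu and between 161 and 194 CPM elsewhere. The other 4 group means lay within 180 and 185 CPM, 2.93-fold above Tu at the nearest. MCHR1, described above, was the other lower receptor. TIE1, a tyrosine kinase of blood vessel lining, RXFP2 (ENSDARG00000019660), a relaxin family receptor, ADGRB1 (ENSDARG00000078529), an adhesion G protein-coupled receptor, and plxnb2a.2, a plexin that binds semaphorins, were higher in Tu. The plxnb2a.2 gene was at 2.57, 2.56 and 1.92 CPM in Tu and at most 0.133 CPM elsewhere.

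Of 6 genes grouped here as transcription regulators, 4 were lower in Tu. MYCL, a Myc family factor, was at 5.42, 5.18 and 4.70 CPM in Tu against 18.6 to 51.5 CPM. TBX2 (ENSDARG00000006120), a T-box repressor, was at 1.22, 1.46 and 1.86 CPM against 3.39 to 14.3 CPM, with the highest group mean in nkd1-/- (11.9 ± 3.54). ZEB1, a repressor of epithelial genes, was at 2.19, 1.93 and 1.40 CPM against 3.45 to 8.57 CPM. The nrip1b gene, a cofactor of nuclear receptors, was at 2.42, 2.83 and 1.96 CPM against 8.19 to 18.6 CPM. SP7, a zinc finger factor of bone formation, was higher, at 21.7, 23.0 and 21.4 CPM in Tu against 1.43 to 12.2 CPM, and so was MDFI, an inhibitor of myogenic factors, whose levels outside Tu are given further on.

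Among the lower genes 3 handle glucose-6-phosphate or carry sugar phosphates. G6PC3, a glucose-6-phosphatase of the endoplasmic reticulum, was at 0.380, 0.493 and 0.400 CPM in Tu against 2.96 to 6.74 CPM, 8.86-fold from the nearest group. The slc37a4b gene, a transporter that brings glucose-6-phosphate to that enzyme family, was at 0.443, 0.303 and 0.220 CPM in Tu against 1.24 to 4.45 CPM. SLC37A1, a related sugar-phosphate transporter, was at 4.53, 4.27 and 3.10 CPM in Tu against 7.76 to 28.3 CPM. The choice of genes required all 3 to be separated from the other samples, and SLC37A1 only just passed the limit, with a step of 1.22.

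An oxidase and its partner were lower together. The duox gene encodes the dual oxidase that makes hydrogen peroxide at the cell surface, and DUOXA1 the factor needed for its maturation. Duox was at 18.8, 42.9 and 30.6 CPM in Tu, and elsewhere between 56.5 and 157 CPM. DUOXA1 was at 3.94, 7.79 and 6.96 CPM in Tu, and elsewhere between 16.9 and 27.7 CPM. In both genes Tu replicate 1 was the lowest sample and Tu replicate 2 the highest of Tu. The other groups were ordered differently in the 2 genes, with duox highest in nkd1-/- (146 ± 18.3 CPM) and DUOXA1 highest in axin2-/- (25.8 ± 3.04 CPM).

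The 3 annexins among the genes, calcium-dependent proteins that bind membranes, were lower in Tu. ANXA4 was at 2.0, 1.93 and 1.96 CPM in Tu against 4.82 to 16.8 CPM, anxa3b at 0.864, 0.815 and 0.360 CPM against 3.41 to 31.5 CPM, and anxa13l at 0.864, 0.891 and 0.420 CPM against 1.79 to 15.7 CPM. Summed over all 17 annexin genes in the table, Tu was at 473 ± 69.0 CPM, TL at 501 ± 27.7, axin2-/- at 692 ± 129, nkd1-/- at 575 ± 54.5 and the double mutant at 812 ± 42.2 CPM. The annexin total was thus lowest in Tu as a mean, differed from that of TL by less than the spread between samples, and was farthest from that of the double mutant.

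Membrane traffic and mitochondrial genes went both ways. MYO5B, a myosin motor of recycling endosomes, was at 2.68, 4.02 and 5.82 CPM in Tu, at 23.9 ± 1.27 in TL, 20.04 ± 4.97 in axin2-/-, 63.5 ± 5.26 in the double mutant and 80.5 ± 25.2 in nkd1-/-. The rab14l gene, named after the endosomal GTPase Rab14, was higher, at 62.0, 64.4 and 61.9 CPM in Tu against 11.6 to 25.7 CPM. TIMM17A, a subunit of the channel that imports proteins into mitochondria, was at 85.5, 77.5 and 92.4 CPM in Tu against 22.1 to 33.6 CPM. CCDC90B, a mitochondrial coiled-coil protein, was lower, at 1.18, 1.73 and 1.62 CPM against 9.92 to 28.8 CPM.

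**Figure D3:**
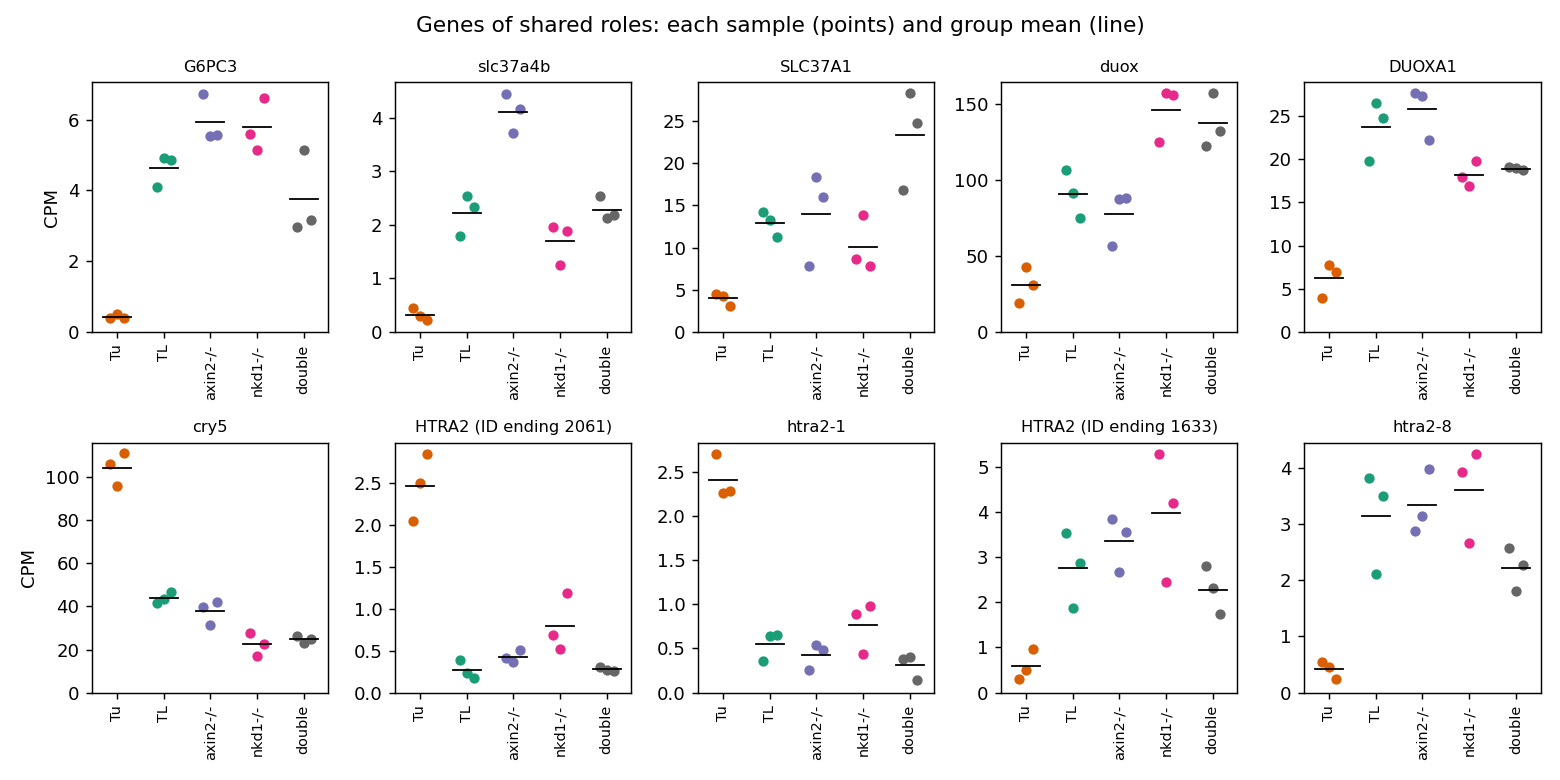
CPM on linear axes that start at 0 for genes that share a role or a name; points are the samples, 3 in each of the 5 groups, and lines the group means. The top row shows 5 genes lower in Tu, and in the bottom row cry5, htra2-1 and 1 HTRA2 gene are higher in Tu while htra2-8 and another HTRA2 gene are lower.

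Copies of htra2, a serine protease of the mitochondrial intermembrane space in mammals, appeared in both directions. The table has 17 IDs of this name, of which 4 were among the genes. HTRA2 (ENSDARG00000092061) was at 2.05, 2.5 and 2.84 CPM in Tu against 0.177 to 1.19 CPM, and htra2-1 was at 2.70, 2.26 and 2.28 CPM against 0.144 to 0.983 CPM. HTRA2 (ENSDARG00000111633) was lower, at 0.295, 0.493 and 0.960 CPM in Tu against 1.73 to 5.28 CPM, and so was htra2-8, at 0.548, 0.455 and 0.240 CPM against 1.81 to 4.24 CPM. The sum over the 17 IDs was 24.1 ± 3.22 CPM in Tu, 26.6 ± 5.39 in TL, 31.6 ± 3.65 in axin2-/-, 35.1 ± 9.03 in nkd1-/- and 23.7 ± 2.65 in the double mutant. The total of Tu thus lay among those of the other groups, and copies that resemble each other may share reads, so the value of each single copy is uncertain. Reads may likewise be shared among the 4 IDs named zgc:173544 or zgc:173545, of which 3 were among the genes. Unlike the htra2 copies, all 3 were higher in Tu. The sum over the 4 IDs was higher as well, at 75.4 ± 2.90 CPM in Tu against group means of 8.59 to 23.6 CPM elsewhere.

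Gene families were looked up by name. The TRIM and finTRIM family, ubiquitin ligase-like proteins that form a very large group in fish, had 3 of its 121 tested genes among the 200 (2.48%, against 0.925% of all 21614 tested genes), and all 3 were higher in Tu. These were ftr90, ftr76 and btr18. The finTRIM gene ftr90 was at 86.7, 88.7 and 93.5 CPM in Tu, at 19.0, 24.0 and 11.8 CPM in TL, and at 4.37 CPM or less in the 9 mutant samples. The btr18 gene was at 5.42, 4.80 and 12.4 CPM in Tu against 1.34 to 2.70 CPM. Summed over the 74 genes whose names begin with ftr, the level was 862 ± 35.8 CPM in Tu, 1007 ± 57.3 in TL and 937 ± 31.5 in axin2-/-. It was 733 ± 66.4 CPM in nkd1-/- and 765 ± 9.41 in the double mutant. The finTRIM total of Tu thus lay among those of the other groups. Genes matched by name as zinc finger proteins had 2 of 359, both lower, znf1017 and znf1130. The zinc finger factor SP7, higher in Tu, was not in that count. Solute carriers and ABC transporters, counted together, had 5 of 429, of which SLC16A8, SLC46A3 and the ABC transporter abca5 were higher. One of 65 cytochrome P450 genes, cyp2aa9, was higher. Of 58 genes matched by name as proteases and inhibitors, 2 were among the 200, prss59.1 and PRSS35, both lower. Proteases under other names, such as the calpains and the htra2 copies described above, were not in that count, so it does not give the direction of proteases as a whole. No gene of the 200 came from the histones, the ribosomal proteins, the mitochondrial genome, the MHC genes, the NLR genes, the GIMAP group, the glutathione enzymes, the lectins or the transposon-derived genes that were listed. These families had only 10 to 94 tested genes each. With 0.925% of all tested genes among the 200, their absence is not read as a result.

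None of the 200 genes, and none of the 472 before the limit, belonged to the 8 lists of genes with known roles at this stage. The lists are short, with 9 to 22 tested genes each, and the 200 genes are 0.925% of all tested genes. The absence is therefore not read as a result about these roles. The 2 IDs named WNT8A had 0 counts in every sample and could not have been chosen. For the list genes themselves, Tu was tested against the mean of the other 4 groups by edgeR's quasi-likelihood test, in which 35.4% of all tested genes were called at an adjusted p under 0.05, 19.6% higher and 15.8% lower. Of 33 Wnt targets and regulators listed, 23 were found by symbol, and 22 genes were tested. Of these 22, 1 was called higher in Tu (vent) and 9 lower. The lower ones included LEF1, a transcription factor of the pathway, by 1.1 ± 0.198 on the log2 scale (SE; edgeR adjusted p = 0.000366), msgn1, a factor of presomitic mesoderm, by 1.07 ± 0.290 (edgeR adjusted p = 0.00854), and AXIN2 by 0.47 ± 0.0975 (edgeR adjusted p = 0.00113). LEF1 was at 13.4 ± 1.88 CPM in Tu, 16.4 ± 2.25 in TL and 23.3 to 44.4 CPM as means of the mutants, so Tu and TL were close together and the wider step lay among the other groups. The same held for msgn1, at 18.4 ± 5.57 CPM in Tu, 19.4 ± 4.80 in TL, 24.9 in axin2-/-, 68.8 in nkd1-/- and 70.12 in the double mutant as means. AXIN2 was also close in Tu (62.3 ± 4.34 CPM) and TL (69.3 ± 5.80), a log2 difference of -0.10 ± 0.12. Its means were 85.4 to 104 CPM in the mutants, axin2-/- and the double mutant among them.

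The contrast averages TL with 3 mutants, so a call does not place Tu beyond each group. The Tu mean was below the other 4 group means in 8 of the 9 lower Wnt genes. The exception was sp5l, a Wnt target that averaged 89.9 ± 31.9 CPM in Tu, 67.7 ± 17.5 in TL and 127 to 263 CPM in the mutants. A call as lower favours such a position, and its share over all genes called lower was not counted. It was also found in 4 of 5 lower mesoderm and endoderm genes, 3 of 5 lower dorsal organizer genes and 4 of 4 lower enveloping layer genes. The same held for 2 of 3 lower maternal and pluripotency genes, 2 of 2 lower yolk syncytial layer genes and 2 of 2 lower stress and p53 genes. Among genes called higher, the Tu mean was above the other 4 in 4 of 4 enveloping layer genes and 2 of 3 maternal and pluripotency genes. These counts do not set any list apart. The transcription factor mxtx2, the yolk syncytial layer gene called higher, averaged 46.3 CPM in Tu, below TL (55.3) and axin2-/- (71.8) and above nkd1-/- (20.3) and the double mutant (13.6). The pluripotency factor nanog, also called higher, averaged 436 CPM in Tu, 474 in TL, 402 in axin2-/-, 197 in nkd1-/- and 206 in the double mutant.

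The median log2 difference was -0.26 over the 22 Wnt genes and 0.00402 over all tested genes. The other lists had medians between -0.25 and -0.01, the lowest being that of the stress and p53 response genes, close to that of the Wnt list. Calls were mostly lower in the Wnt list, the dorsal organizer list and the mesoderm and endoderm list alike. Of 13 dorsal organizer genes, 1 was higher (noto) and 5 lower. Of 14 mesoderm and endoderm genes, 1 was higher and 5 lower. The lower genes tbx16 and tbxta are in this list and in the Wnt list, so the lists are not independent. Of 13 maternal and pluripotency genes, 3 were called in each direction. Markers of the other cell populations that a whole embryo holds gave 4 higher and 4 lower of 14 enveloping layer genes, 1 higher and 2 lower of 9 yolk syncytial layer genes, and 0 higher and 1 lower of 10 germ cell genes. Stress and p53 response genes gave 0 higher and 2 lower of 15. The summed level of the enveloping layer markers was 10350 to 11430 CPM in Tu, 8987 to 10900 in TL, 9518 to 11200 in axin2-/-, 11870 to 15250 in nkd1-/- and 12160 to 12870 in the double mutant. That of the yolk syncytial layer markers was 2718 to 3438 CPM in Tu, 2769 to 3148 in TL, 2972 to 3736 in axin2-/-, 3377 to 4769 in nkd1-/- and 4272 to 4394 in the double mutant. Germ cell markers summed to 490.6 to 525.5 CPM in Tu and 348.3 to 658.6 CPM elsewhere. For the enveloping layer sum the Tu samples overlapped with those of TL and axin2-/-, for the yolk syncytial layer sum with those of TL, axin2-/- and nkd1-/-, and they lay within the range of the other samples for the germ cell markers. The part of these cell populations in the levels of the 200 genes was not tested.

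Which group came closest to Tu was not fixed by the choice of genes. For 61 of the 200 genes (30.5%) it was nkd1-/-, the line made in Tu, for 55 (27.5%) TL, for 43 (21.5%) the double mutant and for 41 (20.5%) axin2-/-. Over all 21614 tested genes these shares were 27.2%, 26.6%, 21.8% and 24.4%. The shares of the 200 genes were therefore close to those of all genes, and nkd1-/- was not the nearest group for most of them.

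Differences among the other 4 groups were tested with the same edgeR fit, in contrasts that hold no Tu sample. The choice of genes still bears on them, because a gene was kept only where no step among those 4 groups exceeded the step to Tu. A gene could also reach 2 CPM through Tu alone. In 31 of the 107 higher genes all 4 other group means were under 1 CPM, which leaves few counts to show a difference. The tested genes as a whole did not have to reach 2 CPM in a group. The shares of the 200 genes and of all tested genes therefore stand side by side as a description. Of the 200 genes, 123 (61.5%) were called in at least 1 of 4 contrasts, against 60.3% of all tested genes, and 77 were called in none. The median size of the log2 change, without its sign, was 0.43 in the 200 genes and 0.38 in all tested genes for axin2-/- against TL, and 0.46 and 0.31 for the double mutant against nkd1-/-. It was 0.48 and 0.54 for the double mutant against axin2-/-, and 0.62 and 0.49 for nkd1-/- against TL.

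Loss of axin2 was set against its own strain first. In axin2-/- against TL, 48 of the 200 genes were called (24.0%; 21.2% of all tested genes). Of these, 17 were higher (all genes 10.6%) and 31 lower (all genes 10.6%). The smallest adjusted p was that of ftr90, which fell from 18.3 ± 6.14 CPM in TL to 2.64 ± 0.192 in axin2-/- (log2 fold change -2.77 ± 0.27 SE, edgeR adjusted p = 1.97e-06). The clone-named gene si:ch1073-249f22.1 fell from 8.46 ± 1.64 to 1.77 ± 0.617 CPM (-2.25 ± 0.27, edgeR adjusted p = 1.89e-05), toward its level in Tu of 0.390 ± 0.0825. The zgc:173544 gene rose from 0.712 ± 0.290 to 10.8 ± 1.58 CPM (3.93 ± 0.43, edgeR adjusted p = 6.26e-06), with Tu at 38.6 ± 2.18. It has close copies by name, so its reads may be shared.

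The double mutant was set against nkd1-/- next. Here 32 of the 200 genes were called (16.0%; 11.5% of all tested genes). Of these, 13 were higher (all genes 6.06%) and 19 lower (all genes 5.49%). RNPEP, an aminopeptidase that removes basic residues, fell from 50.9, 43.1 and 39.0 CPM in nkd1-/- to 14.2, 10.3 and 10.2 CPM (log2 fold change -1.93 ± 0.20 SE, edgeR adjusted p = 5.81e-06). In Tu it was at 4.45, 3.91 and 3.32 CPM. ENSDARG00000117541, a gene with no symbol, rose from 0.722 ± 0.374 to 4.75 ± 2.30 CPM (2.75 ± 0.39, edgeR adjusted p = 0.000161). The si:dkey-65b12.12 gene fell from 5.77 ± 1.45 to 1.76 ± 0.340 CPM (-1.69 ± 0.26, edgeR adjusted p = 0.000512). It was the one gene of the 200 with 0 counts in all 3 Tu samples, and it was at least 29.4-fold lower there than in the double mutant, with each Tu library taken at a floor of 3 counts that covers counting error only.

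Against axin2-/-, the double mutant differed in 65 of the 200 genes (32.5%; 38.6% of all tested genes). Of these, 27 were higher (all genes 19.0%) and 38 lower (all genes 19.5%). The crygmxl1 gene, a gamma crystallin, fell from 1.77 ± 0.873 CPM in axin2-/- to 0.0504 ± 0.0502 (log2 fold change -4.96 ± 0.58 SE, edgeR adjusted p = 5.75e-06). MYLK (ENSDARG00000004753), the kinase that activates myosin light chains, rose from 0, 0 and 1 counts to 20, 44 and 56 counts (edgeR adjusted p = 2.62e-05). The zgc:173545 gene (ENSDARG00000092026) fell from 3.82 ± 0.341 to 1.27 ± 0.211 CPM (-1.55 ± 0.23, edgeR adjusted p = 5.93e-05).

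In nkd1-/- against TL, 68 of the 200 genes were called (34.0%; 35.3% of all tested genes). Of these, 36 were higher (all genes 17.7%) and 32 lower (all genes 17.6%). Both mutation and strain differ in this contrast. Again ftr90 was lower (log2 fold change -3.05 ± 0.27 SE, edgeR adjusted p = 2.52e-07), at 2.12 ± 0.737 CPM in nkd1-/-. PER1 (ENSDARG00000012499) fell by 2.99 ± 0.27 (edgeR adjusted p = 3.01e-07). MDFI fell from 2.10 ± 0.634 CPM in TL to 2, 0 and 7 counts in nkd1-/- (-5.26 ± 0.53, edgeR adjusted p = 1.1e-06), while Tu was at 5.33, 6.41 and 6.52 CPM. Both ftr90 and MDFI were highest in Tu, which the choice of genes required, and low in the line made from that strain. For ftr90 the other mutants were about as low, at 2.64 ± 0.192 CPM in axin2-/- and 3.59 ± 0.748 in the double mutant. MDFI averaged 0.954 ± 0.198 CPM in axin2-/- and 0.572 ± 0.225 in the double mutant, both below TL and above nkd1-/-.

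The change that goes with axin2 loss was also compared between the backgrounds. Strain and family enter along with the mutations, since the double mutant has mixed parentage. The change from TL to axin2-/- was subtracted from the change from nkd1-/- to the double mutant. This difference was called in 33 of the 200 genes (16.5%; 19.2% of all tested genes). It was positive in 16 (all genes 9.65%) and negative in 17 (all genes 9.54%). RNPEP had about the same level in TL (16.1 ± 1.88 CPM) and axin2-/- (18.4 ± 5.51 CPM) and fell between nkd1-/- and the double mutant, a difference of -2.15 ± 0.27 (log2, SE; edgeR adjusted p = 4.73e-05).

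**Figure D4:**
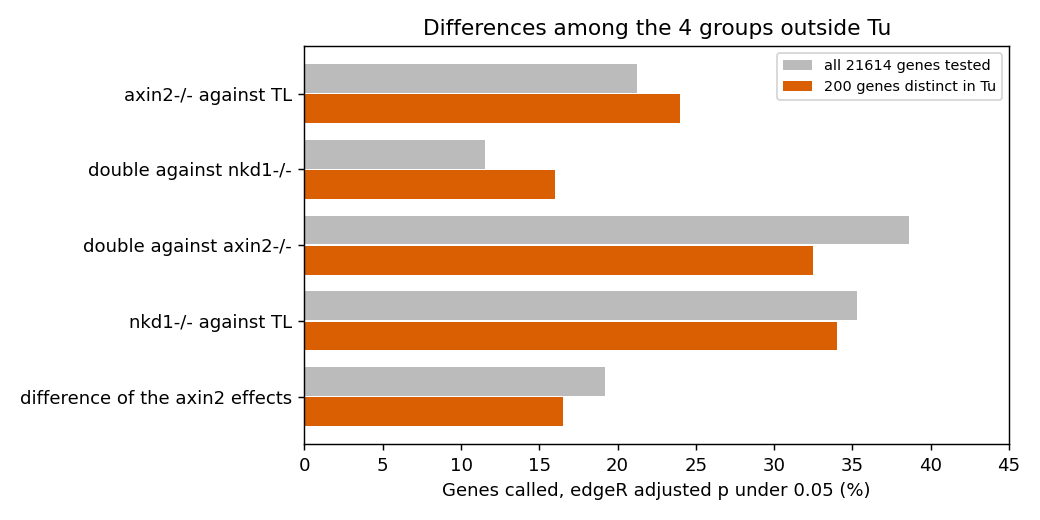
Bars give the percentage of genes called at an edgeR adjusted p under 0.05 in 4 contrasts without Tu samples and in the difference of the axin2 effects, for all 21614 tested genes (grey) and for the 200 genes (orange). The orange bar is above the grey one for axin2-/- against TL (24.0% and 21.2%) and for the double mutant against nkd1-/- (16.0% and 11.5%), and below it in the other 3. When calls also needed a fold change of 1 or more in size on the log2 scale, the orange share was at or above the grey one in all 5. The shares were 23.5% and 19.3% for nkd1-/- against TL, and nearly equal (20.5% and 20.3%) for the double mutant against axin2-/-.

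Neighbouring genes were looked up by their order in a RefSeq table of another assembly. Of the 200 genes, 128 could be placed among 13881 tested genes (0.922%). Of their 255 neighbours, 2 were themselves among the 200 (0.784%), and they formed 1 pair, htra2-1, higher in Tu, beside htra2-8, lower in Tu. The share among neighbours was close to that among all placed genes, and genes that could not be placed are not covered by it. By name, 2 of 3 genes that share the clone name si:ch1073-340i21 were among the 200, both lower in Tu. Their clone's sum was 6.59 CPM in Tu against group means of 29.1 to 52.3 CPM elsewhere. Of 7 genes named si:ch211-226h8, 2 were among the 200, both higher, with a sum of 85.8 CPM in Tu against 29.3 to 55.0 CPM. A clone-style name or none was carried by 62 of the 200 (31.0%), against 24.4% of all tested genes.

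The limits of the choice were not marked by a break in the values. The last higher genes within the 200 were cyp2aa9 and ULK2, both with steps of 1.199, and the first beyond it were itga2.3 at 1.198 and SYPL2 at 1.196. On the lower side selenou1a at 1.202 and zgc:100868 at 1.1997 were within it, and crip1 at 1.18 and ENSDARG00000117434 at 1.17 were beyond it. Just under the condition of 0.7 lay GMNN and CAMK2B on the higher side and arhgef4 and inka1b on the lower side, at 0.697, 0.697, 0.696 and 0.696. The cyp2aa9 gene was at 22.5, 22.9 and 23.7 CPM in Tu, and its axin2-/- samples reached 13.4, 11.6 and 5.93 CPM, while GMNN was at 430, 368 and 358 CPM in Tu and at 247, 208 and 258 CPM in TL.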

How the data were processed

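The authors deposited 1 table of read counts per Ensembl gene, whole numbers that are not normalized, with a column for each of the 15 samples. Per the labels' protocols, RNA came from pools of 10 embryos and libraries from an NEBNext Ultra II kit. The submitters' processing notes name the GRCz11 build and edgeR 3.30.3; the aligner, the counter and the use of strand are not given in the sources used here, so overlapping or near-identical genes may share reads. Symbols were found for 29201 of 32520 IDs, and some symbols stand for several IDs.

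Genes were filtered with filterByExpr (minimum count 10, minimum total 15), which kept 21614 genes and all 200 chosen genes, and fitted over all 15 samples with edgeR 4.0.16 in R 4.3.3 (TMM, group as the only factor, quasi-likelihood F test, Benjamini-Hochberg over all tested genes, called at an adjusted p under 0.05). The spread of a fold change is an approximate standard error, taken as the size of the log2 fold change divided by the square root of its F statistic. It is least certain where a group had close to 0 counts. CPM used column totals, with a pseudocount of 0.5. The code was tested on simulated data. Counts of replicates differed by 13.2 to 73.7 chi-square per degree of freedom, so each library counts as 1 sample. At totals from 44098543 counts, genes well under 1 CPM rest on few counts.

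The genes, lists, families and alternatives were chosen with earlier results of these data known; the role groups, the copy sums, the neighbour order, the test of Tu against the mean of the other 4 groups and the difference of the axin2 effects were added after the data were seen. Named genes are the 10 with the largest steps and a true symbol in each direction (6 with every sample), the 2 largest steps under any name, up to 4 per list or family, up to 3 per contrast by smallest adjusted p, and those beside the limits; members of role groups were named after their values were seen.

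Alternatives were DESeq2 1.42.0, its size factors, no filter, only the groups compared, a replicate block, a fold threshold, other pseudocounts and limits of the choice, and each sample left out. Sequences were not used here.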

Additional observations from a re-analysis of the deposited data

Results flagged for a closer look

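The effect of axin2 loss was compared between backgrounds, as the log2 change from nkd1-/- to the double mutant minus the change from TL to axin2-/-. No Tu sample enters this difference, and strain and family differ along with the mutations. Of the 200 genes, 33 were called by edgeR's interaction term (16.5%; 19.2% of all tested genes), 16 with a positive and 17 with a negative difference. These differences flagged 12 named genes. In crygmxl1, MDFI and si:dkey-65b12.12 both effects were called and ran opposite ways.

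The crygmxl1 gene rose by 1.82 in axin2-/- and fell by 3.03 in the double mutant, a difference of -4.85 ± 0.75 (SE; edgeR adjusted p = 0.000269). MDFI fell by 1.12 and rose by 3.44, a difference of 4.56 ± 0.69 (edgeR adjusted p = 0.000223), with 9 counts in all over the 3 nkd1-/- samples. Its fall in axin2-/- was only just called (edgeR adjusted p = 0.0481). The clone-named si:dkey-65b12.12 rose by 0.99 and fell by 1.69, a difference of -2.69 ± 0.36 (edgeR adjusted p = 0.00012). The zgc:173544 gene rose by 3.93 in axin2-/- and had a log2 change of -0.44 in the double mutant, a difference of -4.37 ± 0.56 (edgeR adjusted p = 5.16e-05).

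The finTRIM gene ftr90 fell by 2.77 in axin2-/-, with 0.76 in the double mutant, a difference of 3.52 ± 0.38 (edgeR adjusted p = 7.95e-06). Its relative ftr76 fell by 1.49, with -0.03 in the double mutant, a difference of 1.45 ± 0.33 (edgeR adjusted p = 0.00538). In ENSDARG00000117541 the difference was 2.74 ± 0.51 (edgeR adjusted p = 0.0014) and in MCHR1 (ENSDARG00000022525) 2.26 ± 0.47 (edgeR adjusted p = 0.00296). RNPEP had a difference of -2.15 ± 0.27 (edgeR adjusted p = 4.73e-05). The calpain capn12 had 1.91 ± 0.55 (edgeR adjusted p = 0.0215), cyp2aa9 -1.58 ± 0.40 (edgeR adjusted p = 0.0097) and PER1 (ENSDARG00000012499) 1.23 ± 0.37 (edgeR adjusted p = 0.0265).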

How the results depend on the processing

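No named fold change reversed under an alternative that was run. The order of the share called among the 200 genes and that among all tested genes did change in some contrasts, as given below. Of 178 alternative values for counts, 166 stayed within 1.5 times the value reported. A fold threshold of 1 (log2) on the calls gave 2588 genes in axin2-/- against TL, 1403 in the double mutant against nkd1-/-, 4385 in the double mutant against axin2-/- (41 of the 200 genes) and 4168 in nkd1-/- against TL. In every contrast the share called among the 200 genes was then at or above that of all tested genes. It was 23.5% and 19.3% for nkd1-/- against TL, but nearly equal for the double mutant against axin2-/- (20.5% and 20.3%). Without the threshold the share of the 200 genes was the higher one only for axin2-/- against TL and for the double mutant against nkd1-/-. DESeq2 gave nearly equal shares for nkd1-/- against TL (38.5% and 38.3%). For the choice itself, before the limit of 200, a step of at least 1 gave 148 higher and 133 lower genes. At least 5 CPM in a group gave 152 higher genes, and a pseudocount of 2 gave 138 lower genes. Of the 200 genes, 185 still met the conditions with that pseudocount and 141 with 5 CPM. Fewer, 157, were still among the 200 widest steps with the pseudocount of 2.

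With each sample left out, the genes called ran from 3304 to 4289 in axin2-/- against TL, from 1444 to 2738 in the double mutant against nkd1-/-, for the double mutant against axin2-/- from 6491 to 7672, and from 5947 to 7215 in nkd1-/- against TL. The second count fell to 1558 without nkd1-/- replicate 3, to 1563 without double mutant replicate 2 and to 1444 without double mutant replicate 3. Of the 200 genes, 35 to 50, 22 to 38, 44 to 56 and 59 to 73 were called in these contrasts. The choice gave 216 to 322 higher and 228 to 297 lower genes, and the 12 fold changes tested stayed on their side of the threshold.

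Over 30 pairs of samples with the same replicate number the mean correlation of deviations was 0.042 (-0.125 to 0.236), and 8 of 15 samples correlated best with their own number. The correlations were weak, and whether the numbers pair the samples was not tested. A replicate block gave 49, 35, 61 and 71 of the 200 genes called. DESeq2 gave 57, 40, 67 and 77, with no adjusted p for 13 genes. Windows of 100 kb around the genes were not run, since no annotation of the build was used. Genes well under 1 CPM rest on few counts. The steps of 22 named genes were followed. Of their 66 alternative steps without leaving out a sample, 20 moved by more than the spread between replicates, all under the pseudocount of 2. With that pseudocount most of the 22 steps thus moved. Of the 330 steps with a sample left out, 22 moved as well.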

Other observations

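The genes related to PER1 and cry5 were looked at after their values had been seen, so these levels carry no test. PER2, a second period protein that light induces in zebrafish, averaged 21.5 ± 2.15 CPM in Tu (SD, n = 3) and 21.4 ± 4.17 in nkd1-/-, with 8.13 ± 0.575 in TL, 9.40 ± 1.202 in axin2-/- and 11.4 ± 4.21 in the double mutant. PER3 averaged 28.6 ± 5.22 CPM in Tu and 29.3 ± 4.10 in TL. The cry3a gene, a cryptochrome, averaged 168 ± 24.3 CPM in Tu and 138 ± 17.4 in nkd1-/-, against 96.3 to 102 CPM as means of the remaining groups. The damage sensors XPC and DDB2 averaged 166 ± 16.5 and 14.9 ± 1.72 CPM in Tu, against 133 ± 9.56 and 13.5 ± 2.70 in TL, 148 ± 13.3 and 13.1 ± 2.56 in axin2-/-, 115 ± 14.8 and 12.3 ± 4.72 in nkd1-/-, and 98.0 ± 9.92 and 9.67 ± 1.24 in the double mutant. The light-repair gene cry-dash averaged 25.04 ± 2.28 CPM in Tu and 16.9 to 24.5 CPM in the other groups, and lonrf1 averaged 44.98 ± 1.001 CPM in Tu, 19.5 ± 1.86 in TL, 27.4 ± 2.53 in axin2-/-, 64.96 ± 5.73 in nkd1-/- and 53.02 ± 10.9 in the double mutant.

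Among the core clock activators, BMAL1 (ENSDARG00000006791) was at 5.503, 5.33 and 4.24 CPM in Tu and between 6.46 and 11.1 CPM in the other 12 samples. It thus lay below all of them, but its step of 0.547 was under the condition of 0.7. The other gene named BMAL1 (ENSDARG00000035732) averaged 3.23 ± 1.64 CPM in Tu and 2.55 to 3.48 CPM in the other groups. CLOCK (ENSDARG00000003631) averaged 10.02 ± 2.12 CPM in Tu, 11.9 ± 1.53 in TL, 8.33 in axin2-/-, 5.47 in nkd1-/- and 5.32 in the double mutant. The other CLOCK gene (ENSDARG00000011703) averaged 1.12 ± 0.376 CPM in Tu, 3.51 ± 0.822 in TL and 1.42 to 2.49 CPM in the mutants.

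The spread between replicates is given as a description with no test. For the 200 genes it was limited by the choice, which allowed no Tu sample to overlap with any sample from outside Tu. The same choice set the level of Tu apart from that of the other groups. Whether replicates of these genes vary as much in Tu as elsewhere was therefore not tested. The median SD of log2(CPM + 0.5) among the 3 samples of a group was 0.216 in Tu, 0.214 in TL, 0.242 in axin2-/-, 0.289 in nkd1-/- and 0.213 in the double mutant. Over all tested genes it was 0.187, 0.161, 0.196, 0.203 and 0.160. The largest of these medians was that of nkd1-/- in both sets of genes.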
